A study of Drosophila melanogaster with 6 samples.

Results

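This account covers 10 genes that mark the blood cells of Drosophila melanogaster or encode the enzymes of melanin formation: eater, NimC1, Hml, He, Pxn, crq, lz, PPO1, PPO2 and PPO3. They were taken by name, as every probe set whose only gene in the platform annotation is one of them, which gave 11 probe sets of 18769 tested, or 10 of 11982 genes. Pxn has 2 probe sets and each other gene has 1. Values are log2 expression from Affymetrix arrays. A group of 3 arrays held whole prepupae of the w1118 strain, and a group of 3 held prepupae of the genotype sox14L1/sox14L1 in w1118, that is, with the L1 allele on both copies of Sox14, the gene of an HMG-box transcription factor. By name both groups share the w1118 background, which does not show that they match outside Sox14. All animals were collected at 0 h, directly after pupariation, and each array carried RNA of 10 pooled prepupae. What limits the mutant as a model is that it was tested as 1 allele, and the labels do not name its lesion. Homozygosity for a mutant chromosome can also fix other differences carried along chromosome 2.

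Fly blood cells, or hemocytes, are of several kinds. Plasmatocytes are macrophages that engulf microbes and dying cells, and at metamorphosis they clear larval tissue. Crystal cells store prophenoloxidases, zymogens that are cut by serine proteases into phenoloxidases and then oxidise phenols to melanin at wounds. Lamellocytes are flat cells that encapsulate parasites and are rare in healthy larvae. In whole-animal RNA, fewer cells of a type and less RNA per cell cannot be told apart.

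The targeted gene read lower in the mutant on every array, with Sox14 at 10.58 ± 0.21 (SD, n = 3) against 11.57 ± 0.16 in the control. Its only probe set is of the type whose name marks probes shared by several transcripts. The values do not show how much function the allele retains. Arrays within a genotype correlated at 0.993 to 0.996. A pair of mutant arrays stood apart in measures other than the blood cell genes. The first mutant array read 12.18 for the 18S rRNA control probe sets, against 7.56 to 7.94 on the other 5. On the second mutant array the mean log2 value of the 6 salivary gland glue genes was 10.72, against 12.01 to 13.14 on the others. Markers of fat body, salivary gland, muscle and neurons were measured without a detection call. Some of them differed between the genotypes, as given after the blood cell genes. Changes are given as mutant minus control in log2 units, each with a standard error. A probe set is called where the adjusted p in limma, corrected by Benjamini-Hochberg over all 18769 probe sets, is under 0.05. Whether the 3 samples per genotype were raised separately is not in the labels, so the p-values cover the spread among these samples, which may be technical.

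The comparison asked which blood cell transcripts differ when Sox14 is mutated at the onset of metamorphosis. The plasmatocyte receptor gene eater and the pan-hemocyte surface gene He rose more than 2-fold in the mutant, the receptor gene NimC1 rose less, and the crystal cell enzyme gene PPO1 fell. The other 7 probe sets were not called. Of the 11 probe sets, 3 were therefore called higher and 1 lower. Among all probe sets, 19.1% were called, 8.64% higher and 10.4% lower. The groups did not overlap for 7 of the 11 probe sets, against 36.2% of all probe sets. With 1 probe set per gene, 40% of the 10 genes were called, against 24.7% of all genes. By that count 7 of the 10 did not overlap, against 5130 of 11982 genes. The median change of the 11 was 0.0051, against -0.03 over all probe sets.

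**Figure D1:**
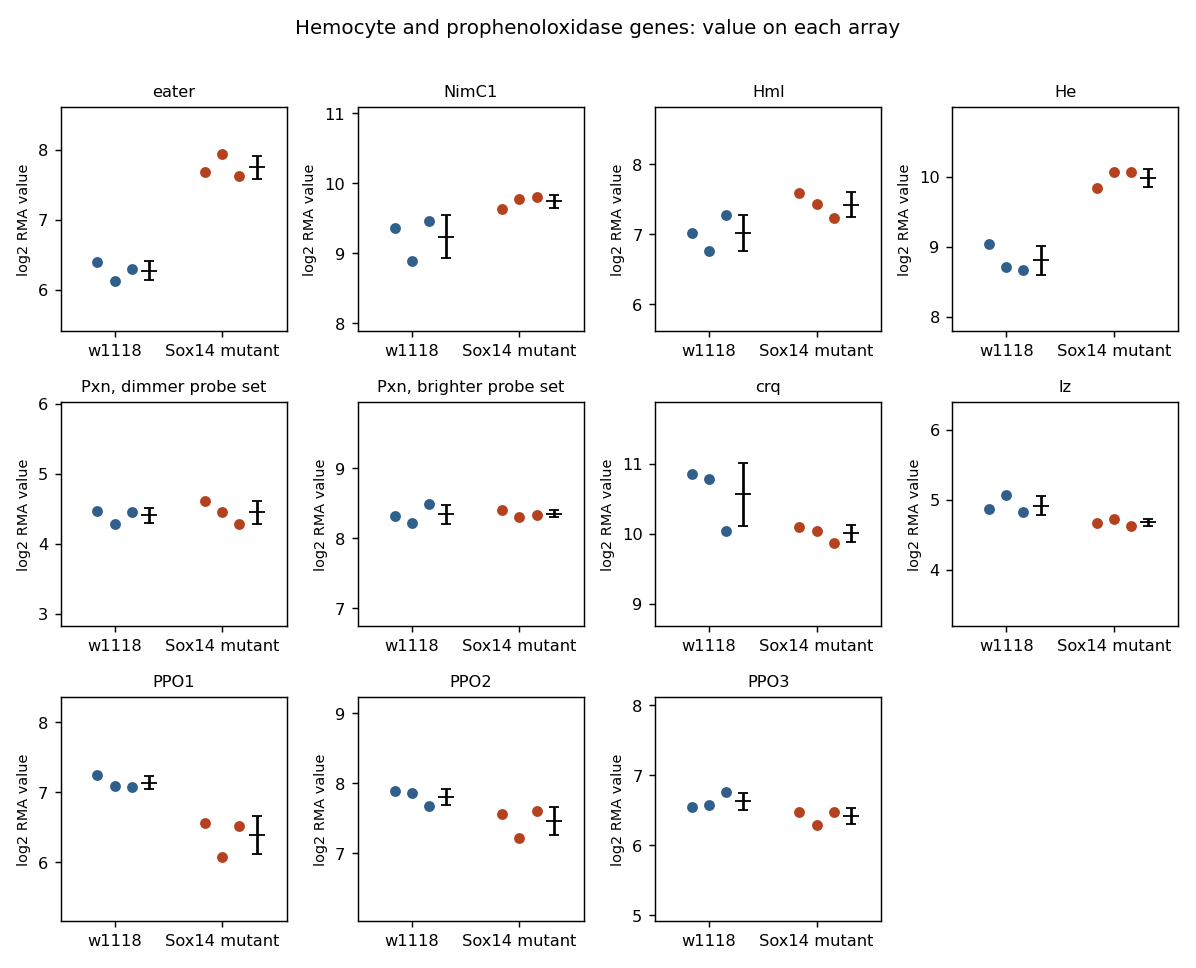
Log2 RMA value of each of the 11 member probe sets on the 3 w1118 arrays (blue) and the 3 Sox14 mutant arrays (red), with mean and SD beside them in black. Each vertical axis spans the same range, so distances can be compared between panels but levels cannot. For eater and He the mutant arrays lie above the control arrays by gaps of 1.23 and 0.79, and for PPO1 below them by 0.52.

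Among receptors of engulfment, eater encodes a plasmatocyte receptor with EGF-like repeats that binds bacteria. It read 7.68, 7.94 and 7.63 on the mutant arrays and 6.39, 6.12 and 6.29 on the control arrays. All 3 mutant arrays lay above all 3 control arrays, and the gap of 1.23 between the groups was several times the spread within either. The gene rose by 1.48 ± 0.12 (limma adjusted p = 5.13e-05), a 2.79-fold difference with a 95% interval of 2.32 to 3.36. Only 2.39% of all probe sets had a larger change in either direction. The rise was 1.39 to 1.54 with each array left out in turn, among them 1.51 without the first mutant array and 1.39 without the second. The gene lies on arm 3R, and Sox14 lies on 2R.

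NimC1, the Nimrod receptor also known as the plasmatocyte antigen P1, takes part in the uptake of bacteria. Its values were 9.63, 9.78 and 9.81 in the mutant and 9.37, 8.89 and 9.45 in the control. The groups did not overlap, but the gap between them was 0.18, smaller than the control SD of 0.30. NimC1 rose by 0.50 ± 0.15 with an adjusted p of 0.0492 in limma, just under the threshold. The call was lost when any array but the third control array was left out, with adjusted p-values of 0.0667 to 0.135, and the change was 0.33 without the second control array. It was also lost with each array centred on its median (0.46, adjusted p = 0.0627).

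crq encodes the CD36-family receptor croquemort, by which plasmatocytes take up apoptotic cells. It read 10.10, 10.04 and 9.87 in the mutant and 10.86, 10.78 and 10.05 in the control. The third control array lay among the mutant arrays and the other 2 control arrays lay above them. The change was -0.56 ± 0.20 (95% interval -1.02 to -0.10, limma adjusted p = 0.0968) and was not called. Without the third control array it was -0.81 with an adjusted p of 0.00290 in limma, and with any other array left out it was not called. With all 6 arrays crq was also called in limma with array weights (-0.68, adjusted p = 0.0181) and in the fit with the replicate number as a block (adjusted p = 0.0394), so the call depends on the model as well. Its probe set is of the type whose name marks probes shared by several transcripts.

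The other plasmatocyte genes encode surface or secreted proteins. He encodes hemese, a mucin-like membrane protein present on all classes of larval hemocytes. On the mutant arrays it read 9.83, 10.06 and 10.06, and on the control arrays 9.04, 8.72 and 8.66. The 2 genotypes were well apart, with a gap of 0.79 between the lowest mutant and the highest control array. He rose by 1.18 ± 0.13 (limma adjusted p = 0.000301), a 2.26-fold difference with a 95% interval of 1.85 to 2.76. With each array left out in turn it rose by 1.11 to 1.30 and was called each time, including 1.25 without the first mutant array and 1.14 without the second.

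Hml encodes hemolectin, a large secreted protein of the clot that is made by plasmatocytes. It read 7.59, 7.44 and 7.24 in the mutant and 7.01, 6.76 and 7.27 in the control, so that the third control array reached into the range of the mutant arrays. The change of 0.41 ± 0.15 was not called (95% interval 0.07 to 0.74, limma adjusted p = 0.0951), and it was 0.53 with an adjusted p of 0.0439 in limma without the third control array.

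Pxn encodes peroxidasin, a matrix enzyme that crosslinks collagen IV in basement membranes. Its brighter probe set read 8.40, 8.31 and 8.33 in the mutant and 8.31, 8.22 and 8.49 in the control. The mutant arrays lay within the range of the control arrays, and the change was 0.0051 ± 0.10 (95% interval -0.22 to 0.23). Differences larger than 1.17-fold up or down lie outside that interval. The dimmer Pxn probe set, whose level was above only 9.63% of all probe sets, read 4.28 to 4.61 in the mutant and 4.28 to 4.47 in the control, with a change of 0.04 ± 0.11. The limma adjusted p was 0.981 for the brighter and 0.843 for the dimmer probe set.

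**Figure D2:**
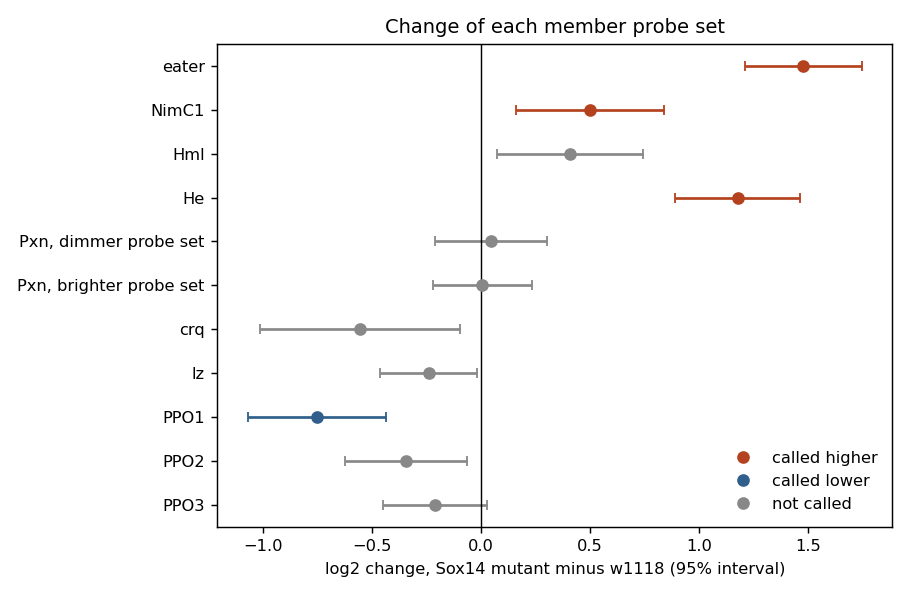
Change of each member probe set, Sox14 mutant minus w1118, on the log2 scale, with points for the estimate and bars for the 95% interval from limma. The intervals of eater and He start at 1.21 and 0.89, that of PPO1 runs from -1.07 to -0.44, and those of both Pxn probe sets and PPO3 span 0.

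Of the 4 members that serve crystal cells or encode a prophenoloxidase, PPO1 fell, and lz, PPO2 and PPO3 were not called. lz encodes the RUNX transcription factor Lozenge, which directs precursors to the crystal cell fate and is also active in other tissues. It read 4.67, 4.73 and 4.63 in the mutant and 4.87, 5.07 and 4.82 in the control. The groups did not overlap, by a gap of 0.09, and the change was -0.24 ± 0.10 (95% interval -0.46 to -0.02, limma adjusted p = 0.136). This probe set was dim, above 18.6% of all probe sets, and RMA compresses differences in that range.

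PPO1 encodes the crystal cell prophenoloxidase that is released first when cells rupture at a wound. Its values were 6.56, 6.07 and 6.52 in the mutant and 7.24, 7.09 and 7.08 in the control. Each mutant array lay at least 0.52 below each control array, and the second mutant array was the lowest. PPO1 fell by 0.75 ± 0.14 (limma adjusted p = 0.00607), so that the control level was 1.69 times that of the mutant (95% interval 1.35 to 2.10). With each array left out in turn the change was -0.84 to -0.60 and stayed called in limma, with adjusted p-values of 0.00893 to 0.0244. It was -0.84 without the first mutant array and -0.60 without the second.

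PPO2 encodes the prophenoloxidase that forms the crystals of crystal cells. It read 7.56, 7.22 and 7.60 in the mutant and 7.88, 7.86 and 7.68 in the control. The genotypes were separated by 0.08 only, less than the SD of either, and the second mutant array was again the lowest of the 6. The change was -0.35 ± 0.12 (95% interval -0.63 to -0.06) and did not pass the test in limma (adjusted p = 0.0909).

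PPO3, the prophenoloxidase gene of lamellocytes, read 6.48, 6.28 and 6.47 in the mutant and 6.54, 6.57 and 6.76 in the control. The lowest control array was 0.06 above the highest mutant array. The change was -0.21 ± 0.10 (95% interval -0.45 to 0.03) and was not called in limma (adjusted p = 0.214).

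The differences within these gene groups were compared array by array. The change of PPO1 was 0.41 lower than that of PPO2 and 0.54 lower than that of PPO3. For both pairs the 2-sided exact permutation test gave p = 0.1, the smallest that 3 against 3 arrays allow, and 0.133 adjusted over the 4 pairs compared. PPO2 and PPO3 differed by -0.13 in their change (exact p = 0.4, adjusted 0.4). For the neighbouring genes He and NimC1 the change of He was 0.68 larger (exact p = 0.1, adjusted 0.133). These 4 pairs were chosen after the values were seen, and such small groups cannot reach a p under 0.05 in this test.

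**Figure D3:**
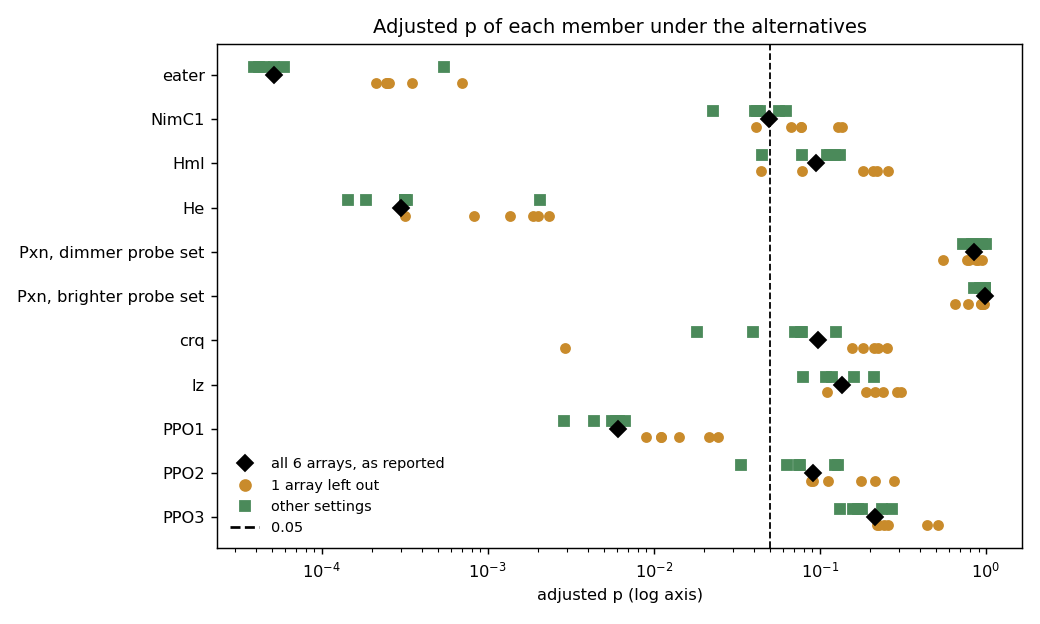
Adjusted p of each member probe set (log axis) with all 6 arrays (black diamonds), with each array left out in turn (orange circles) and under the other settings at the 0.05 threshold (green squares). Points of eater, He and PPO1 all lie left of the dashed line at 0.05, while those of NimC1, Hml, crq and PPO2 fall on both sides of it.

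The 10 genes lie on several chromosomes. Of the 4 called, NimC1 and He lie on 2L, PPO1 on 2R and eater on 3R. For all 4, eater included, an effect of the Sox14 mutation and of other strain differences, on chromosome 2 or elsewhere, cannot be told apart in this design. He and NimC1 are directly adjacent in the RefSeq annotation, beside NimB5 of the same Nimrod gene cluster. The nearest measured gene on each side that is no member was looked up for each of the 10, a step added after the values were seen. Around the 4 called genes, 0 of 6 such neighbours were called in limma and 0 of 6 had an unadjusted p under 0.05, the lowest being 0.264. NimB5, for one, changed by 0.02 ± 0.12. Of the further Nimrod genes on 2L, NimB1 rose by 0.88 ± 0.20 and NimC2 fell by 0.71 ± 0.12. NimB2, NimB3, NimB4, NimC3 and NimC4, also on 2L, were not called. Over all 10 genes, 5 of 18 neighbours were called, 1 higher and 4 lower. Among these was CG8745 beside Hml, with a change of -2.41 ± 0.12. Of all 11982 genes 24.7% were called, and 6 neighbours are too few to be read against that share. Whether strain differences reach the called genes was not tested.

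Genes with related roles were examined as 5 lists, with 62 of 74 listed genes measured and 1 probe set per gene. In limma, 15 of the 62 were called higher and 8 lower. Among all 11982 genes 24.7% were called, 11.3% higher and 13.4% lower. The lists were chosen with earlier results of these data known, and no test of a share was run. The 15 calls of higher genes were 9 without the first mutant array and 9 without the third control array. Of the 23 called genes, 14 lie on chromosome 2, where 36 of the 62 measured genes lie.

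**Figure D4:**
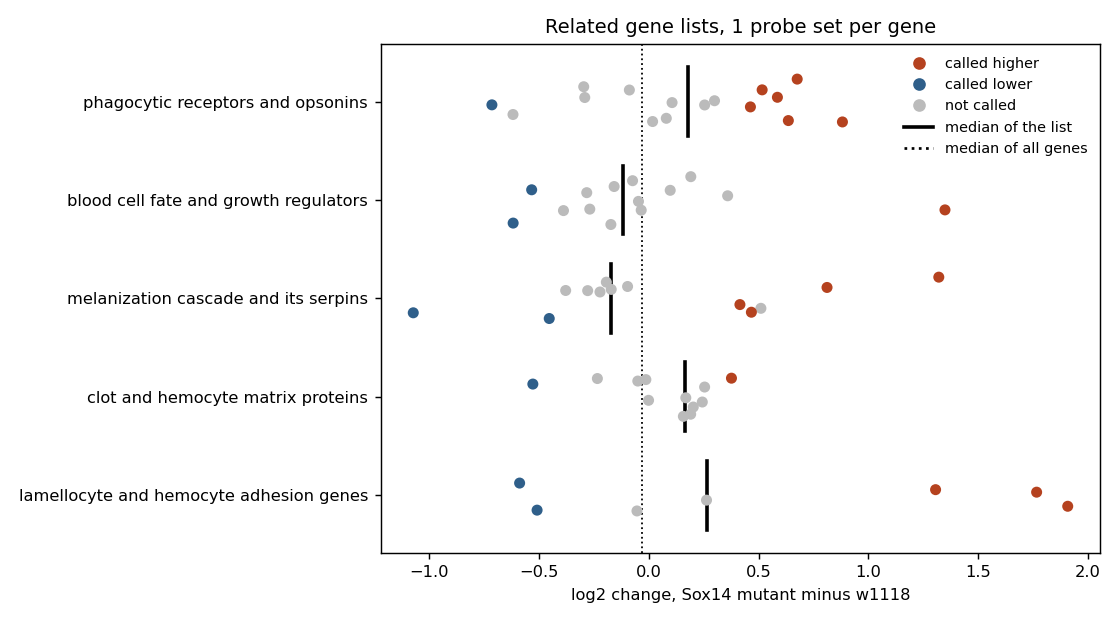
Log2 change of each of the 62 genes of the 5 related lists, with genes called higher in red, called lower in blue and not called in grey. Black bars are the list medians, from -0.17 to 0.26, and the dotted line is the median of all genes at -0.03. The 3 points furthest to the right in the lamellocyte and adhesion list are atilla, ItgaPS4 and Itgbn, between 1.31 and 1.91.

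The list of lamellocyte and adhesion genes held the 2 largest rises among the 62 genes. Of 7 measured genes, 3 rose and 2 fell, a share of 71.4% beside the 24.7% of all genes, with a median of 0.26. atilla encodes a Ly6-family surface protein that marks lamellocytes. It read 8.30, 8.97 and 9.44 in the mutant and 7.01, 6.96 and 7.02 in the control. The control arrays were nearly equal, while the mutant arrays differed by more than 1 log2 unit among themselves and all lay above them. atilla rose by 1.91 ± 0.24 (limma adjusted p = 0.000777), a 3.75-fold difference. ItgaPS4 encodes an integrin alpha chain that lamellocytes express. It read 6.12, 6.59 and 7.15 in the mutant and 4.87, 4.77 and 4.91 in the control. As for atilla, the first mutant array was the lowest of the 3 and the third the highest. ItgaPS4 rose by 1.77 ± 0.22 (limma adjusted p = 0.000734). Itgbn, the gene of an integrin beta chain that serves in the uptake of apoptotic cells and bacteria, rose by 1.31 ± 0.15 (limma adjusted p = 0.000498). PPO3, which also marks lamellocytes, was not called and read 0.21 lower in the mutant. The kinase gene msn fell by 0.59 ± 0.13, and the filamin gene cher, also active in many other tissues, fell by 0.51 ± 0.14. The call of cher was lost with any of 4 arrays left out, with adjusted p-values up to 0.131. atilla and Itgbn lie on 2L and ItgaPS4 on 2R.

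Further phagocytic receptors and opsonins were called in both directions. Of 16 measured genes, 6 rose and 1 fell, a share of 43.75% beside the 24.7% of all genes, with a median change of 0.18. NimB1, a secreted Nimrod gene, rose by 0.88 ± 0.20, from 5.68 ± 0.27 to 6.56 ± 0.35. Tep4, which encodes a thioester-containing protein of the hemolymph, rose by 0.68 ± 0.11, and the scavenger receptor gene Sr-CI by 0.64 ± 0.16. The 3 other rises were in pes (0.59 ± 0.12), Tep3 (0.52 ± 0.12) and Sr-CII (0.46 ± 0.11). Sr-CII was dim, above 15.7% of all probe sets. NimC2, another gene of the Nimrod family, fell by 0.71 ± 0.12, from 12.81 ± 0.03 to 12.10 ± 0.22 (limma adjusted p = 0.00341). The engulfment receptor gene drpr, known for the clearance of pruned neurites and dying cells, changed by -0.09 ± 0.10 and was not called. All 7 called genes lie on chromosome 2, as do 15 of the 16. The call of NimB1 was lost without the third control array (adjusted p = 0.0628), that of Tep3 without the first mutant array (0.0528), and those of Sr-CI and Sr-CII each with any of 4 arrays left out. In this list 3 genes instead of 6 were called higher without the first mutant array.

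**Figure D5:**
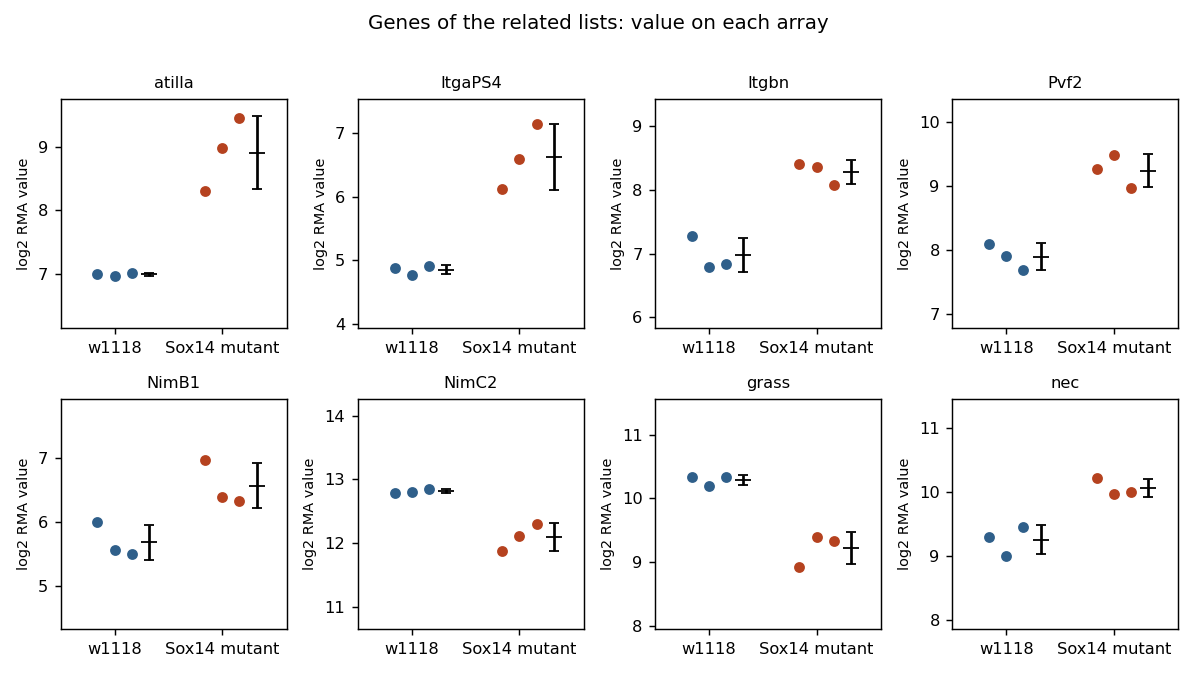
Log2 RMA value of 8 genes of the related lists on the 3 w1118 arrays (blue) and the 3 Sox14 mutant arrays (red), with mean and SD in black and the same span on each vertical axis. The 8 genes were taken from called genes whose groups do not overlap, so the separation in each panel follows from that choice. Of the 62 related genes, 36 did not overlap, against 5130 of 11982 genes. The mutant arrays spread widest for atilla and ItgaPS4, with SDs of 0.57 and 0.51.

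Of 14 measured regulators of blood cell fate and growth, 1 rose and 2 fell, a share of 21.4% beside the 24.7% of all genes. Pvf2, a PDGF- and VEGF-like ligand of the receptor Pvr that promotes hemocyte growth and survival, read 9.27, 9.48 and 8.97 in the mutant and 8.10, 7.90 and 7.68 in the control. The groups were separated by 0.87, and Pvf2 rose by 1.35 ± 0.15 (limma adjusted p = 0.000434). Its receptor gene Pvr changed by 0.19 ± 0.10 and was not called (limma adjusted p = 0.234). Stat92E, the transcription factor gene of the JAK/STAT pathway, fell by 0.62 ± 0.13. Bgb, whose protein is a partner of RUNX factors such as Lozenge, fell by 0.53 ± 0.10 (limma adjusted p = 0.00688). The GATA factor gene srp and its cofactor gene ush changed by -0.39 ± 0.15 and -0.28 ± 0.10 and were not called.

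In the list of the melanization cascade, 4 of 13 measured genes rose and 2 fell, a share of 46.2% beside the 24.7% of all genes. SPE, the protease that cleaves the Toll ligand, rose by 1.32 ± 0.37, while grass, a protease upstream of it, fell by 1.07 ± 0.13. nec, a serpin that restrains Toll activation, rose by 0.81 ± 0.13, and psh, a protease gene of the same pathway, changed by -0.38 ± 0.12 and was not called (limma adjusted p = 0.0606). SPE read 9.01, 7.86 and 7.31 in the mutant and 6.91, 6.46 and 6.84 in the control. Its first mutant array stood far above the others, the change was 0.84 without it, and the call was lost with any of 4 other arrays left out. Of the proteases that cut prophenoloxidase or act just before that step, Sp7 rose by 0.41 ± 0.11 and Hayan fell by 0.45 ± 0.12 (limma adjusted p = 0.0279 and 0.0272). Both calls were lost with most arrays left out in turn, 4 of 6 for Sp7 and 5 of 6 for Hayan, with adjusted p-values up to 0.0879 and 0.0876. yellow-f, which encodes an enzyme that converts dopachrome in melanin synthesis, rose by 0.47 ± 0.13, a call lost with any of 5 arrays left out. Spn27A, the serpin that blocks prophenoloxidase activation, changed by -0.22 ± 0.12 and was not called.

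Among 12 clot and matrix genes made by hemocytes or fat body, 1 rose and 1 fell, a share of 16.7% against the 24.7% of all genes. fon, a clot protein gene that is strongly expressed in the fat body, fell by 0.53 ± 0.12 and lost its call without the second mutant array (adjusted p = 0.0594). Tig, the gene of an integrin ligand secreted by hemocytes, rose by 0.38 ± 0.11, and its call was lost with each of the 6 arrays left out in turn. The collagen IV genes Col4a1 and vkg changed by -0.05 ± 0.12 and -0.0011 ± 0.11.

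Markers of other tissues were not level between the genotypes. The summed level of the 3 measured muscle markers, as log2 of the sum of linear values, was 11.03 to 11.34 on the mutant arrays and 9.35 to 9.64 on the control arrays, with all 3 called higher. Among these, the tropomyosin gene Tm2 rose by 1.88 ± 0.12 and the troponin T gene up by 1.19 ± 0.11. The sum of the 4 measured neuron markers was 10.28 to 10.54 in the mutant and 10.22 to 10.31 in the control, with 1 called higher and 1 lower. Of these, Snap25, a gene of synaptic vesicle fusion, rose by 1.34 ± 0.13 and nSyb, another, fell by 0.36 ± 0.10, while elav changed by -0.02 and was not called. The sum of the 3 measured fat body markers was 16.56 to 16.57 and 16.83 to 16.90, with 1 called lower. Fbp2 fell by 0.86 ± 0.11, and Fbp1 and Lsp2 changed by 0.0045 and -0.21 without a call. For the 6 glue genes 1 was called higher (Sgs4) and 0 lower in limma, with 1 lower at an unadjusted p under 0.05 (Sgs8, -1.14), and Sgs7 changed by -0.70 without a call. The dimmest of the muscle, neuron and fat body markers, Mlc2, still read above 40.3% of all probe sets. The sum of the 10 blood cell and prophenoloxidase genes on the same scale overlapped between the genotypes, with 11.94 to 11.99 in the mutant and 11.66 to 12.00 in the control. Their mean log2 value, in which each gene weighs the same, was 7.79 to 7.85 and 7.61 to 7.75, and that of the neuron markers was 7.90 to 7.99 and 7.65 to 7.69. The part of other tissues, or of a different proportion of tissues, in the changes of the blood cell genes was not tested.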

How the data were processed

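Whole-prepupa RNA was hybridised to 6 Affymetrix arrays, 3 per genotype. Per the submitters' processing notes, the deposited log2 values were made with RMA in Expression Console 1.1. That method removes background, equalises the arrays and combines the probes of a set, which loses absolute amounts and compresses changes of dim transcripts. No source used here names the genome build of the array design, and no coordinates are printed. Chromosome arms and neighbours come from RefSeq (Release 6 plus ISO1 MT), to which 13544 of 13647 single-gene probe sets were matched by gene identifier. A further 402 probe sets had several genes, 4720 had none, and 183 control probe sets were left out. A listed gene without such a probe set was not analysed here.

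Mutant and control were compared in limma 3.58.1 (lmFit, then eBayes, R 4.3.3). P-values are 2-sided and adjusted by Benjamini-Hochberg over 18769 probe sets. An adjusted p of a single gene comes from this fit or, where arrays left out or another setting are named, from its refit under that setting. The fit was tested on simulated data with independent noise and changes larger than the median absolute change called here (0.65). That test does not bear on smaller changes such as that of NimC1. In the related lists each gene is represented by its brightest probe set. The members and lists were chosen with earlier results of these data known. Named were all members, Sox14 and the 2 brightest markers of each other tissue. Of each related list, up to 4 called genes with the largest changes were named, only where the groups did not overlap. Other genes, such as Sp7, Hayan, cher, pes, Tep3, Sr-CII, Fbp2, nSyb and those not called, were named after their values were seen. The precision is limited by the number of arrays.

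The labels say nothing of a pairing of same-numbered arrays, so the fit has no replicate block. The alternatives were that block, array weights, quantile normalisation, centring on the array median, trended and robust variance, leaving out the dimmest 40% of probe sets, a threshold of 0.01, averaging the probe sets of a gene and each array left out in turn.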

Additional observations from a re-analysis of the deposited data

Results flagged for a closer look

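The 18S rRNA control probe sets, which enter no comparison, averaged 12.18 on the first mutant array, above all 3 control arrays (7.56 to 7.87) and the other mutant arrays (7.84 and 7.94). On the same array the 3' minus 5' difference of the actin control probe sets was 2.14, against at most 1.35 on the other 5. The part of this array's RNA in the results was not tested beyond the values without it. Without it, eater changed by 1.51, He by 1.25 and PPO1 by -0.84, all called in limma, and NimC1 by 0.55 without a call.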

How the results depend on the processing

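The calls of eater, He and PPO1 held under every alternative run, with changes of 1.39 to 1.54, 1.11 to 1.30 and -0.89 to -0.60. Of the 11 member probe sets, 3 were called higher and 1 lower, and with each array left out in turn 2 to 4 and 1 to 2. The members called lower were 2 with the replicate block and 3 with array weights. The block added crq (adjusted p = 0.0394 in limma) and dropped NimC1 (0.0565). Deviations of same-numbered arrays correlated at 0.17, -0.10 and -0.02, within the -0.26 to 0.26 of arrays with different numbers. Array weights added crq, PPO2 and Hml. With the dimmest 40% left out, lz and the dimmer Pxn probe set had no value. Near 0, the dimmer Pxn probe set changed sign, with -0.0390 to 0.129 when arrays were left out in turn, and so did the brighter one, with -0.0549 to 0.0800, and with -0.0374 under median centring. Of the related genes called, leaving arrays out in turn gave 9 to 12 higher (15 with all) and 6 to 9 lower (8 with all), and a threshold of 0.01 gave 7 and 3. By list, leaving arrays out gave 3 to 5 higher and 1 to 2 lower for receptors, 2 to 3 lower for regulators, 1 to 3 higher and 1 to 3 lower for melanization, 0 higher and 0 to 1 lower for clot and matrix, and 1 to 2 lower for lamellocyte and adhesion genes. At 0.01 the lists gave 2 higher receptors, 1 lower regulator, 1 higher and 1 lower melanization gene, 0 clot genes in either direction and 0 lower adhesion genes. Lower receptors numbered 2 under median centring, trended variance and the dim filter and 3 with array weights. Under the dim filter NimB1, Sr-CII and ItgaPS4 had no value. Genes called higher then numbered 4 against 6 for receptors and 2 against 3 for lamellocyte and adhesion genes. Over the 5 lists they numbered 12 against 15. Higher clot genes numbered 0 with the replicate block and median centring and 2 with array weights. The causes of these shifts in the counts were not tested. Over all probe sets 3577 were called, against 1963 at 0.01. The precision is limited by 3 arrays per genotype, and RMA compresses the changes of dim transcripts such as lz and the dimmer Pxn probe set.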
